A study of Mus musculus with 6 samples.

Results

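The genes described here are those of cholesterol synthesis, uptake and efflux, taken by name from a list of 37 symbols. Of these, 35 were gene names on the array, out of 37074, and 34 were bright enough to be tested, out of 19447. The sEV group were nude mice injected through the tail vein with 20 µg of purified small extracellular vesicles (sEVs), given 10 times over 21 days. These vesicles, membrane particles that cells release, came from SW620, an established human colorectal cancer line. The control group were nude mice given the same number of injections of sterile PBS, a buffer without vesicles. All mice thus shared the nude background (athymic mice, without mature T cells), and neither the sEV nor the control label gives an age or sex. Each group had 5 mice, and liver RNA of 3 mice per group was measured, each liver on an array of its own. The 3 sEV mice were picked at random.

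Cells make cholesterol from acetyl-CoA in a long chain of enzymes, first through mevalonate to squalene, then through lanosterol to cholesterol. In sterol-poor cells the escort protein SCAP carries the transcription factor SREBP2 out of the endoplasmic reticulum, and the processed factor switches on most genes of this chain. When sterols are plentiful, INSIG proteins hold SCAP and SREBP2 back. The liver is a main site of synthesis, and it also takes up cholesterol from lipoproteins, stores it as esters and exports it to bile and to high-density lipoprotein.

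The arrays carried 59305 spots each outside the controls, of which 49.9% to 54.7% were well above background, and 0 were saturated. Values are normalized log2 signals, on which 0 is the 75th percentile of the array's own processed signal. That percentile was between 391.5 and 418.2 intensity units on the sEV arrays, against 433.7 to 499.5 on the control arrays. The small number of arrays limits the precision, and p-values measure only the spread between these livers. Per the file headers all arrays lay on 1 slide and shared 1 scan, with the 3 controls and sEV 1 in slide row 1 and sEV 2 and sEV 3 in row 2. Values with slide row as a block in the fit (the row block) are therefore given beside the calls. In that fit, as within row 1, the sEV difference rests on sEV 1 against the 3 controls. The livers carried hepatocyte RNA: all 10 hepatocyte markers were tested, among them the albumin gene Alb with a mean normalized log2 signal of 9.64 ± 0.26 in sEV livers and 9.49 ± 0.09 in control livers (SD, n = 3 each).

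Of the 19 tested genes of cholesterol synthesis 9 were lower in sEV livers, while Insig2 and the lipoprotein receptor gene Scarb1 were higher. Of the 34 tested members, 12 fell, 2 rose and 20 did not pass an adjusted p of 0.05 in limma's test. Over all 19447 genes tested, 7.99% were lower, 8.96% were higher and 16.9% were called in either direction. The members' median log2 fold change, sEV minus control, was −0.31, against 0.03 over all genes. The groups did not overlap for 20 of the 34 members, against 40.7% of all genes. With the row block, 16 members passed, 14 lower and 2 higher, against 3.71% of all genes, and the members' median was −0.57. In bulk tissue, fewer cells of a type and less RNA per cell cannot be told apart.

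**Figure D1:**
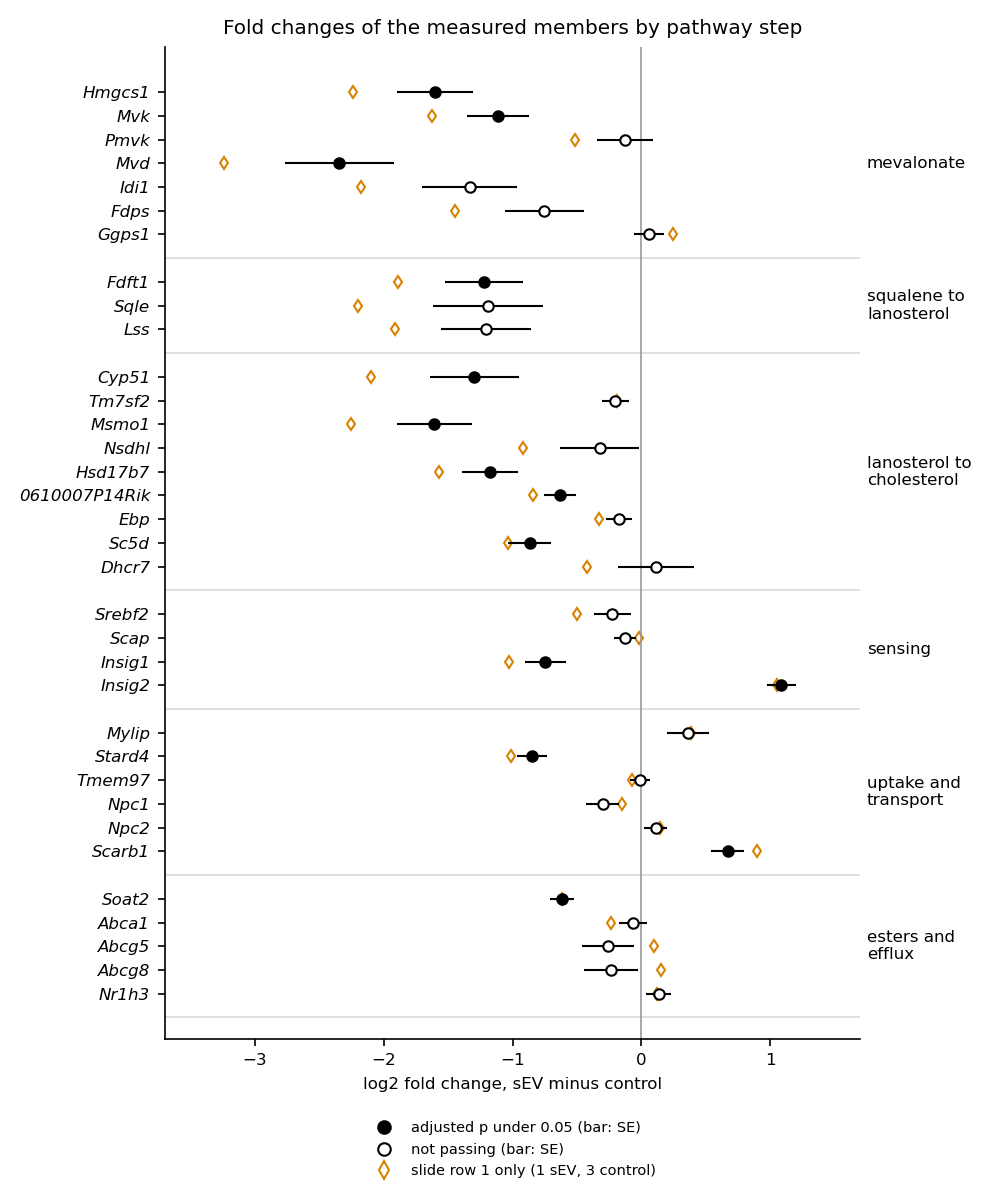
Log2 fold change, sEV minus control (x axis), of each of the 34 tested members (rows, grouped by pathway step). Circles show the fit over all 6 livers with its SE, filled where the adjusted p was under 0.05, and diamonds show slide row 1 alone. The filled circles are left of 0 for 12 members and right of 0 for Insig2 and Scarb1.

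Most of the members that fell were genes of the synthesis pathway. Of these 19 genes, which are enzymes and 1 scaffold, 0 rose and 10 were not called, with −1.11 as the median of their log2 fold changes. By the brightest probe of each gene, the largest fall among the members was that of Mvd, 5.08-fold, followed by Msmo1 and Hmgcs1, 3.05-fold and 3.04-fold. As the mean over a gene's probes, Sc5d came after Mvd, with a log2 fold change of −1.49, against −1.37 for Msmo1 and −1.30 for Hmgcs1. Genes fell in each of the 3 stretches of the pathway: 3 of 7 in the mevalonate stretch, 1 of 3 from squalene to lanosterol and 5 of 9 from lanosterol to cholesterol.

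In the mevalonate stretch, Hmgcs1, Mvk and Mvd fell. Hmgcs1, the synthase that makes HMG-CoA, had normalized log2 signals of 5.42, 6.24 and 6.52 in sEV livers, against 7.96, 7.56 and 7.47 in control livers. Each sEV liver was below each control liver, and sEV 1 was the lowest. This gave a log2 fold change of −1.60 ± 0.29 (SE, adjusted p = 0.0195), and −2.24 with the row block (adjusted p = 0.0153). Mvk, the kinase that phosphorylates mevalonate, had normalized log2 signals of 3.36, 3.99 and 4.26 in sEV livers, against 5.20, 4.84 and 4.91 in control livers. Here too the groups were apart and sEV 1 was the lowest liver. For Mvk the log2 fold change was −1.11 ± 0.24 (adjusted p = 0.0276), and −1.62 with the row block (adjusted p = 0.0210). Mvd, the decarboxylase that forms isopentenyl diphosphate, had normalized log2 signals of −0.43, 0.47 and 1.36 in sEV livers, against 2.96, 2.63 and 2.85 in control livers. The sEV livers spread over a wider range than the controls, all of it below them. The log2 fold change of Mvd was −2.34 ± 0.42 (adjusted p = 0.0186), and −3.24 with the row block (adjusted p = 0.0166).

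The other 4 mevalonate genes did not pass. Idi1, the isomerase of isopentenyl diphosphate, had normalized log2 signals of 3.39, 4.64 and 4.68 in sEV livers, against 5.92, 5.40 and 5.39 in control livers. These groups did not overlap, and the log2 fold change was −1.33 ± 0.37 with an adjusted p of 0.0554. With the row block it was −2.18 (adjusted p = 0.0167). Without sEV 1, the lowest liver, the log2 fold change of Idi1 was −0.91 and passed (adjusted p = 0.0366). That fit has sEV livers of slide row 2 only and controls of row 1 only. Fdps, which makes farnesyl diphosphate, had 5.24, 6.10 and 6.45 in sEV livers, against 6.88, 6.51 and 6.65 in control livers. The difference was −0.75 on the log2 scale (adjusted p = 0.141), and −1.44 with the row block (adjusted p = 0.0320). Pmvk, the kinase after Mvk, had −0.13, with overlapping groups. Ggps1, which leads to geranylgeranyl diphosphate and so off the sterol route, had 0.06, and none of its 6 probes passed. Idi1 and Fdps, like Sqle and Lss, are given in full, a choice made after their values were seen.

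The stretch of genome before a gene's start is where SREBP2 and its partner factors bind in known target genes. Of the 19 tested synthesis genes 9 fell and 10 did not pass. For each member, 250 bases before the start were searched on both strands for 3 motifs. These were the sterol response element of the letters TCACNCCAC, then CCAAT, then GGGCGG, the core of a GC box. RefSeq promoter windows (GRCm38.p6) were at hand for 27 of the 34 tested members. A gene with several starts has several windows, and counts as holding a motif if any of them does. The share of windows takes each window by itself, those of genes not tested included, so the share of tested genes is the like measure. The first motif was in 1 of these 27, Hmgcs1, against 1.05% of all 32851 windows and 1.28% of the 11314 tested genes with a window. CCAAT was in 22 of 27, against 33.9% of windows and 39.7% of tested genes, and GGGCGG was in 22 of 27, against 32.7% of windows and 57.5% of tested genes. Of the members that fell, 9 had a window, 8 of them with CCAAT and 9 with GGGCGG. Most tested members with a window that did not fall held each of these motifs too. Among them were Insig2, which rose, and Tmem97 and Ebp, which did not pass. Insig2 held CCAAT and GGGCGG in windows of different starts, not in the same window. Neither motif was therefore particular to the members that fell. The windows of the 2 mevalonate genes with the largest falls are shown 5′ to 3′ on the gene's strand, with matches to any of the 3 motifs in capitals, CCAAT also as its reverse complement ATTGG and GGGCGG also as CCGCCC. The first lies at chr13:119690101-119690350 (plus strand) and the second at chr8:122443423-122443672 (minus strand).
Hmgcs1: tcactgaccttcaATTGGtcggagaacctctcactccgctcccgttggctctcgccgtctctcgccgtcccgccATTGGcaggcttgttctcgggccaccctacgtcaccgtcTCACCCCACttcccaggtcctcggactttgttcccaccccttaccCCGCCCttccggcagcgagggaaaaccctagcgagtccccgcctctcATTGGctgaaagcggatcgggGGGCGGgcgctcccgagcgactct
Mvd: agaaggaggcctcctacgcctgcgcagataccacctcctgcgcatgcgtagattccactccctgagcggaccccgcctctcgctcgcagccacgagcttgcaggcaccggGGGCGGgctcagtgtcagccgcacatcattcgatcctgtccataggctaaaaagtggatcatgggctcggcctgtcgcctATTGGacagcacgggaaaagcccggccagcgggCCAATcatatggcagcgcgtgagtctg
In Hmgcs1 the sterol response element letters lie 137 to 129 bases before the start, beside 3 CCAAT and 2 GGGCGG matches, none overlapping another. The Mvd window has 2 CCAAT matches and 1 GGGCGG match. A match is a description of these letters, not evidence of binding.

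From squalene to lanosterol all 3 genes had lower means and non-overlapping groups, and 1 passed. Over all genes tested, the groups did not overlap for 40.7% and 7.99% were called lower. Fdft1, squalene synthase, had normalized log2 signals of 3.87, 4.71 and 5.02 in sEV livers, against 6.04, 5.54 and 5.69 in control livers. All sEV livers lay below all controls, with sEV 1 the lowest. For Fdft1 the log2 fold change was −1.22 ± 0.30 (adjusted p = 0.0415), and −1.89 with the row block (adjusted p = 0.0230). Sqle, the epoxidase that acts on squalene, had 2.68, 3.99 and 4.40 in sEV livers, against 5.11, 4.75 and 4.79 in control livers. A log2 fold change of −1.19 ± 0.43 did not pass (adjusted p = 0.106), and with the row block it was −2.20 (adjusted p = 0.0150). Lss, which closes the rings to give lanosterol, had 1.83, 2.69 and 3.08 in sEV livers, against 4.19, 3.47 and 3.56 in control livers. For Lss a log2 fold change of −1.21 ± 0.35 did not pass either (adjusted p = 0.0634), and was −1.91 with the row block (adjusted p = 0.0438). For Sqle the distance between sEV 1 and sEV 2 was larger than that between sEV 3 and the lowest control.

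**Figure D2:**
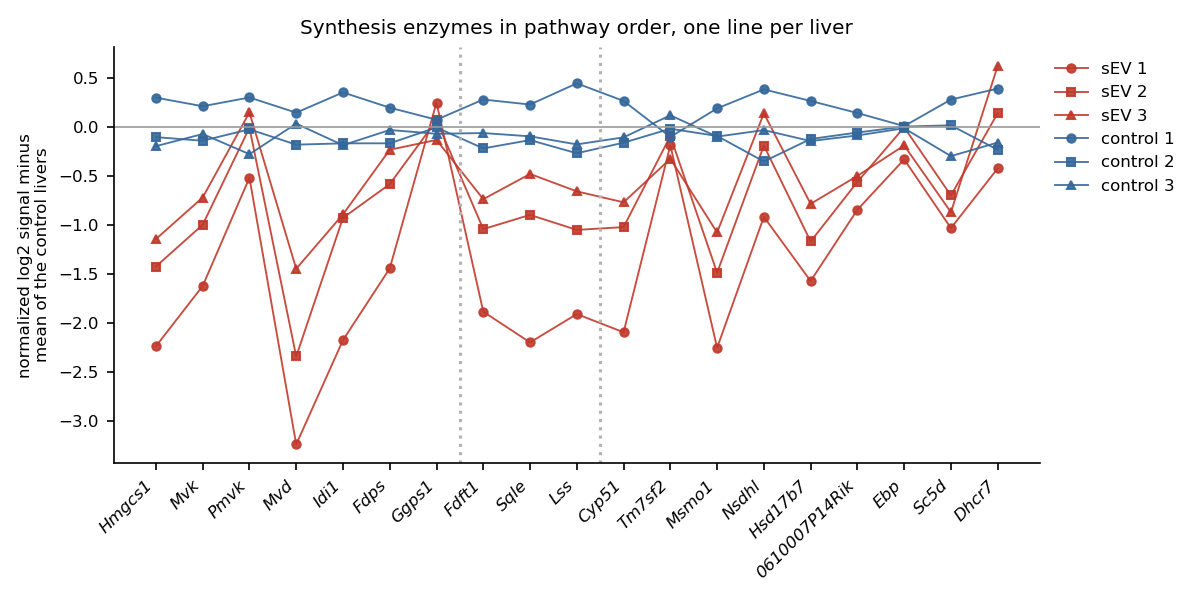
Normalized log2 signal of each liver minus the mean of the 3 control livers (y axis) for the 19 synthesis genes in pathway order (x axis); dotted lines part the 3 stretches of the pathway. The line of sEV 1 is the lowest for 17 of the 19 genes. The control lines centre on 0 because their own mean is subtracted, and control 1 has a median of 0.27.

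Between lanosterol and cholesterol, Cyp51, Msmo1, Hsd17b7, 0610007P14Rik and Sc5d fell. Cyp51, the lanosterol demethylase, had normalized log2 signals of 2.20, 3.28 and 3.53 in sEV livers, against 4.57, 4.14 and 4.19 in control livers. The groups did not overlap, but the call was close to the threshold: the log2 fold change was −1.30 ± 0.35 (adjusted p = 0.0499), and −2.10 with the row block (adjusted p = 0.0139). The call of Cyp51 was lost in 12 of 19 alternative settings. Msmo1, the sterol oxidase that acts at carbon 4, had normalized log2 signals of 4.34, 5.11 and 5.52 in sEV livers, against 6.78, 6.50 and 6.50 in control livers. The highest sEV liver was well below the lowest control. For Msmo1 the log2 fold change was −1.61 ± 0.29 (adjusted p = 0.0189), and −2.26 with the row block (adjusted p = 0.0117). The 250 bases before the start of Msmo1 (chr8:64733579-64733828, minus strand, GRCm38.p6), the gene of this stretch with the largest fall by its brightest probe, hold 3 CCAAT and 2 GGGCGG matches, in capitals.
Msmo1: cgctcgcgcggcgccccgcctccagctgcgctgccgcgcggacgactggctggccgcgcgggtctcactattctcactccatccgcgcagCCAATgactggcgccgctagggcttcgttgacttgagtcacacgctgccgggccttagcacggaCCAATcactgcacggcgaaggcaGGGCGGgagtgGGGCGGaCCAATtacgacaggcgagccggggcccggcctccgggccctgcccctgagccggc
This window does not hold the letters TCACNCCAC, which says nothing of other sterol response elements.

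Hsd17b7, the ketosteroid reductase of the same demethylation step, had normalized log2 signals of 2.82, 3.22 and 3.60 in sEV livers, against 4.65, 4.27 and 4.24 in control livers. Its groups were apart, with sEV 1 the lowest. For Hsd17b7 the log2 fold change was −1.18 ± 0.22 (adjusted p = 0.0203), and −1.57 with the row block (adjusted p = 0.0359). 0610007P14Rik, now named Erg28, is known in yeast as the scaffold that holds these demethylation enzymes together. It had 4.77, 5.06 and 5.12 in sEV livers, against 5.76, 5.56 and 5.53 in control livers, a smaller fall with non-overlapping groups. Its log2 fold change was −0.63 ± 0.12 (adjusted p = 0.0223), and −0.84 with the row block (adjusted p = 0.0420). Sc5d, a desaturase late in the pathway, had 4.96, 5.29 and 5.12 in sEV livers, against 6.27, 6.01 and 5.69 in control livers. All 3 sEV livers were below the controls, and here the controls were the more spread group. The difference was −0.87 ± 0.17 on the log2 scale (adjusted p = 0.0219), and −1.03 with the row block, where it did not pass (adjusted p = 0.0848).

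The other 4 genes of this stretch did not pass and had overlapping groups. In log2 fold change the reductase gene Tm7sf2 was at −0.20 (adjusted p = 0.223). Nsdhl, which removes a carboxyl group at carbon 4, was at −0.32 (adjusted p = 0.504). The isomerase gene Ebp was at −0.17 (adjusted p = 0.289), and its second probe at 0.03. With the authors' deposited values Ebp was at −0.38 and passed (adjusted p = 0.0498). Dhcr7, the reductase of the final step in a branch of the pathway, had 2.33, 2.89 and 3.38 in sEV livers, against 3.15, 2.52 and 2.59 in control livers. Its lowest and highest values were both in sEV livers. The log2 fold change of Dhcr7 was 0.11 (adjusted p = 0.812) over all livers and −0.42 with the row block (adjusted p = 0.478). In sEV 2 and sEV 3 this gene was above the control mean of 2.75.

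The sEV livers differed among themselves in these genes more than the controls did. For 18 of the 19 synthesis genes the SD was larger among sEV livers, against 52.7% of all genes tested, and the median SD was 0.54 in sEV livers and 0.23 in control livers. The difference from the control mean had a median over the 19 genes of −1.57 in sEV 1, −0.90 in sEV 2 and −0.66 in sEV 3. In control livers the same median was 0.27, −0.13 and −0.10. Over all genes tested it was 0.02, 0.04 and 0.02 in sEV 1, sEV 2 and sEV 3. sEV 1 was the lowest sEV liver in 17 of the 19, against 38.5% of all genes tested. It was also the one sEV liver in slide row 1, so for this spread the row and the liver cannot be told apart. Without sEV 1, all 14 calls among the members were kept. That fit sets sEV 2 and sEV 3, both in slide row 2, against controls all in row 1. In it treatment and slide row cannot be told apart.

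**Figure D3:**
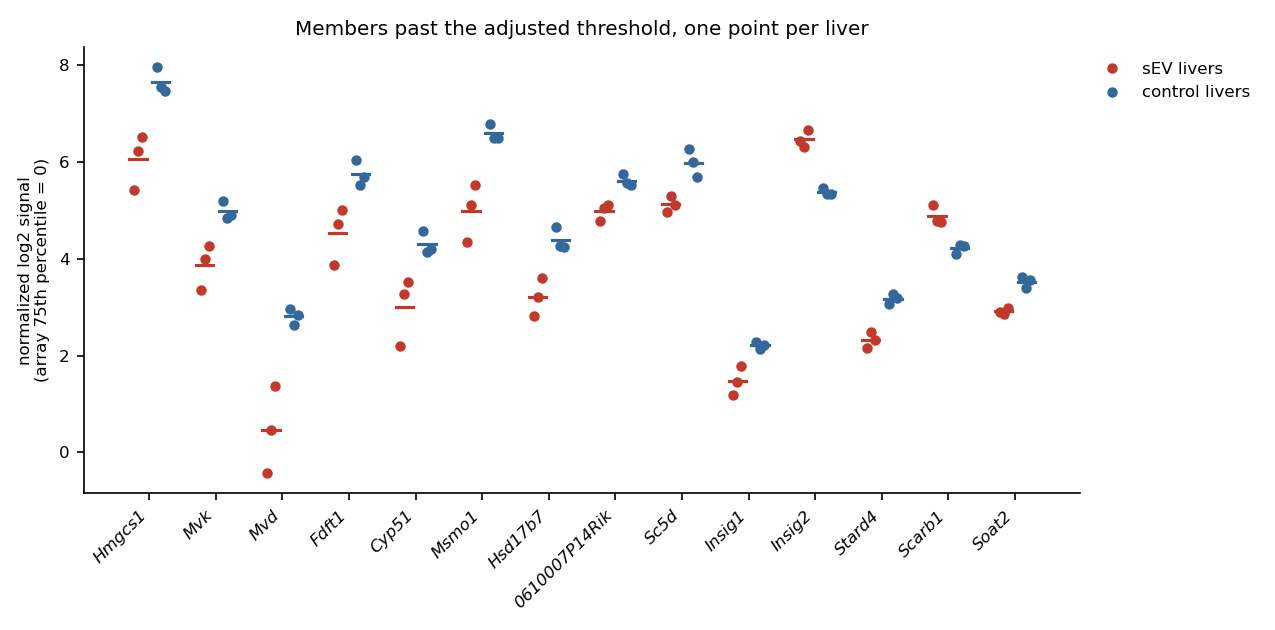
Normalized log2 signal (y axis; 0 is the array's 75th percentile) of the 14 members that passed, with 1 point per liver, sEV livers left of control livers and a bar at each group's mean. No gene has overlapping groups, and the sEV points of Mvd span the widest range.

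Leaving out other livers cost more calls, with the differences in the same direction for all 14 genes. Without sEV 2, 7 of the 14 calls were kept, those of Hmgcs1, Msmo1, Sc5d, Insig2, Stard4, Scarb1 and Soat2, and without control 3 also 7, with Hsd17b7 in place of Scarb1. Without control 1, and likewise without control 2, only 3 were kept, those of Insig2, Stard4 and Soat2, and without sEV 3 the calls of Cyp51 and Sc5d were lost. Over these fits the log2 fold change ranged between −2.79 and −1.90 for Mvd, between −1.83 and −1.29 for Hmgcs1 and between −1.56 and −0.90 for Cyp51. The highest adjusted p was 0.0652 for Mvd, 0.0656 for Hmgcs1 and 0.149 for Cyp51.

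Among the sensing genes, both Insig genes moved, in opposite directions, and the genes of their partners did not pass. That is 1 rise and 1 fall among 4 tested genes, while 16.9% of all genes tested were called in either direction. Insig1, itself a known target of SREBP2, had normalized log2 signals of 1.19, 1.45 and 1.78 in sEV livers, against 2.29, 2.13 and 2.22 in control livers. The groups did not overlap and sEV 1 was again the lowest. For Insig1 the log2 fold change was −0.75 ± 0.16 (adjusted p = 0.0265), and −1.03 with the row block (adjusted p = 0.0409). Insig2, known in mouse liver for a transcript that is not driven by SREBP2 and that insulin lowers, had 6.43, 6.31 and 6.66 in sEV livers, against 5.46, 5.34 and 5.34 in control livers. Every sEV liver was higher than every control, and sEV 1 lay between the other sEV livers. The rise was 2.12-fold, a log2 fold change of 1.09 ± 0.11 (adjusted p = 0.00383), and 1.05 with the row block (adjusted p = 0.0409). Insig2 and Stard4 were the members that kept their call in all 19 alternative settings. Srebf2, which encodes SREBP2, had a difference of −0.23 on the log2 scale (adjusted p = 0.319), and Scap had −0.13 (adjusted p = 0.344), both with overlapping groups.

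All 3 probes of Insig2 rose, with log2 fold changes of 1.09, 1.11 and 1.21. A pair of them overlap on chromosome 1 of mm9, the build in the file headers (chr1:123201085-123201144 and chr1:123201071-123201130), and the third spans chr1:123203517-123203752. They list the same RefSeq transcripts, so the transcripts of Insig2 were not separated. For the Insig gene that fell, Insig1, the 250 bases before the start (chr5:28071162-28071411, plus strand, GRCm38.p6) show 1 CCAAT and 3 GGGCGG matches in capitals.
Insig1: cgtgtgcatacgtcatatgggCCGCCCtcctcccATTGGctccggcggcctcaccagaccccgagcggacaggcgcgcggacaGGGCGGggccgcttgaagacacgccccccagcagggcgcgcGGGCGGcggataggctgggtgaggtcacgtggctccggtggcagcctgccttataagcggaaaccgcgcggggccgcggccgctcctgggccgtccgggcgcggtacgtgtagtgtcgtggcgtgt
No letters of the form TCACNCCAC lie in it.

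Uptake and intracellular transport had 1 fall and 1 rise among 6 tested genes, while 16.9% of all genes tested were called in either direction. Stard4, a carrier that moves sterols between membranes, had normalized log2 signals of 2.16, 2.50 and 2.32 in sEV livers, against 3.07, 3.27 and 3.20 in control livers. The sEV livers were all lower. For Stard4 the log2 fold change was −0.85 ± 0.11 (adjusted p = 0.00791), and −1.02 with the row block (adjusted p = 0.0300). Scarb1, the receptor that takes cholesterol esters from high-density lipoprotein, had 5.11, 4.77 and 4.76 in sEV livers, against 4.09, 4.30 and 4.26 in control livers. All sEV livers were higher, sEV 1 the most. On the log2 scale the difference was 0.67 ± 0.12 (adjusted p = 0.0203), and 0.90 with the row block (adjusted p = 0.0330). A second Scarb1 probe gave 0.72.

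The other transport genes did not pass. Mylip, a ubiquitin ligase that marks lipoprotein receptors for degradation, had 0.36 on the log2 fold change scale (adjusted p = 0.171). Npc1 and Npc2, which release cholesterol from lysosomes, had −0.30 (adjusted p = 0.149, groups not overlapping) and 0.11 (adjusted p = 0.420). Tmem97, a membrane protein that binds Npc1, had −0.01 (adjusted p = 0.938), with group means of 4.50 ± 0.05 in sEV livers and 4.51 ± 0.05 in control livers (SD, n = 3 each). Npc1l1, known for sterol uptake in the gut, was well above background on 0 arrays and was not tested.

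Of the 5 esterification and efflux genes, Soat2 fell and the exporters did not pass, while 16.9% of all genes tested were called in either direction. Soat2, which esterifies cholesterol in hepatocytes, had normalized log2 signals of 2.91, 2.85 and 2.98 in sEV livers, against 3.62, 3.39 and 3.57 in control livers. The groups were apart and the sEV livers lay close together. For Soat2 the log2 fold change was −0.62 ± 0.09 (adjusted p = 0.0116), and also −0.62 with the row block, where it did not pass (adjusted p = 0.0857). Abca1, which exports cholesterol to apolipoprotein A-I, had −0.07 (adjusted p = 0.712), and Nr1h3, the sterol-activated receptor LXR alpha, had 0.14 (adjusted p = 0.376) with groups that did not overlap.

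Abcg5 and Abcg8 encode the partner subunits of the transporter that exports cholesterol to bile, and lie head to head on chromosome 17. Abcg5 had normalized log2 signals of 5.09, 4.80 and 4.32 in sEV livers, against 5.00, 5.10 and 4.89 in control livers. Abcg8 had 3.49, 3.10 and 2.70 in sEV livers, against 3.52, 3.32 and 3.16 in control livers. Both genes had the same order of sEV livers, sEV 1 highest and sEV 3 lowest, with overlapping groups. The log2 fold changes were −0.26 (adjusted p = 0.404) for Abcg5 and −0.24 (adjusted p = 0.468) for Abcg8, and 0.10 and 0.15 with the row block. Abcg8 has 2 listed starts, and the one nearer the start of Abcg5 was used. The 109 bases between it and the Abcg5 start (chr17:84683012-84683120, GRCm38.p6) are printed on the plus strand. They show how close these starts lie and hold none of the 3 motifs.
Abcg5 and Abcg8: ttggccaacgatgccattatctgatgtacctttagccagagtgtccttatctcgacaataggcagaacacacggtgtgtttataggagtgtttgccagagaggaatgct

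Several members had more than 1 probe, 22 of the tested members in all, and a fit over all probes past the filter was used to compare them. For Msmo1 the other 2 probes gave log2 fold changes of −1.54 and −0.95, and for Fdft1 the other gave −1.21, all with an adjusted p under 0.05. The second Soat2 probe gave −0.47 (adjusted p = 0.0322). The 2 Sc5d probes gave −0.87 (adjusted p = 0.0245) and −2.11 (adjusted p = 0.00180). Calls differed between probes of Npc1: its brightest probe gave −0.30 (adjusted p = 0.162), and 2 dim probes gave −0.85 (adjusted p = 0.0142) and −0.94 (adjusted p = 0.0328). A dim Nsdhl probe, well above background on 0 of the 3 sEV arrays, was at least 1.44-fold lower in sEV livers (adjusted p = 0.0319), and a dim Hmgcs1 probe, likewise dim there, was at least 1.64-fold lower (adjusted p = 0.0458). Here the bound sets the control mean against, per sEV array, the higher of the probe's own signal and the lowest signal well above background. Other probes of Mvk (−0.83), Hsd17b7 (−0.88 and −0.46), Stard4 (−0.60) and Cyp51 (−0.65), and of Lss (−1.08 and −0.97), had the same direction and did not pass. In this fit the brightest Cyp51 probe itself had an adjusted p of 0.0542. With the mean over a gene's probes in place of the brightest, Npc1 was at −0.70 and passed (adjusted p = 0.0224). In that setting 12 of the 14 calls among the members were kept. Those of Cyp51 (−0.97, adjusted p = 0.0803) and Hsd17b7 (−0.84, adjusted p = 0.111) were lost.

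**Figure D4:**
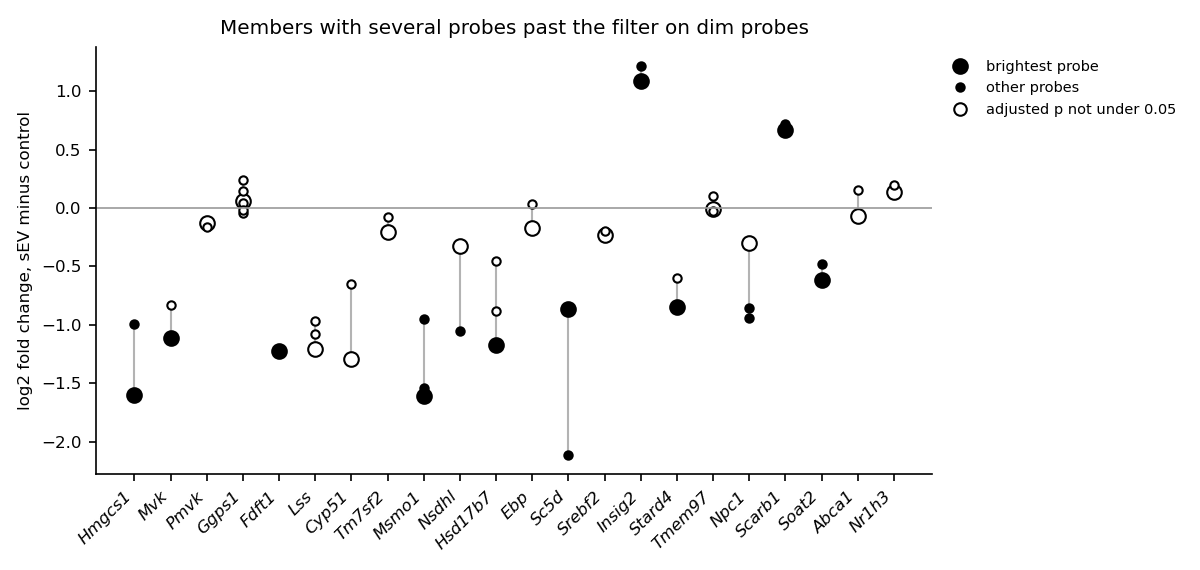
Log2 fold change, sEV minus control (y axis), of each probe past the filter for the 22 members with several such probes (x axis), with large circles for the brightest probe of a gene and filled circles for an adjusted p under 0.05 in the fit over all probes. Sc5d, Nsdhl and Npc1 show probes that differ in size or call, and the 3 Insig2 probes lie together above 0.

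Of 18 other tested genes of sterol synthesis and its control, 3 fell, 0 rose and 15 were not called. The middle value of the log2 fold changes was −0.01. Of all genes tested 16.9% were called in either direction, near the share in this list. Aacs, which makes acetoacetyl-CoA for sterol and fatty acid synthesis, fell by 1.98 on the log2 scale (adjusted p = 0.0134), with normalized log2 signals of 1.96 ± 0.63 in sEV livers and 3.94 ± 0.25 in control livers (SD, n = 3 each). The others were Acat1, a mitochondrial thiolase (−0.79, adjusted p = 0.00815), and Lbr, a lamin receptor with sterol reductase activity (−0.42, adjusted p = 0.0383). Srebf1, the sister gene of Srebf2, had −0.19 (adjusted p = 0.174). Of 11 SREBP targets of fatty acid synthesis 2 fell, Fads2 (−0.63, adjusted p = 0.0229) and Elovl5 (−0.49, adjusted p = 0.0385), and 0 rose. Both genes are of polyunsaturated fatty acid synthesis. The share called in this list was also near the 16.9% of all genes tested. With the row block 0 of these 11 were called in either direction. The fatty acid synthase gene Fasn had −0.07 (adjusted p = 0.900), and the desaturase gene Scd1 had 0.78 (adjusted p = 0.0599).

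Among 16 other tested genes of sterol uptake, transport and efflux, 6 rose, 1 fell and 9 were not called. The median of their log2 fold changes was 0.35. Of all genes tested 8.96% were higher and 7.99% were lower. Cyp27a1, a sterol hydroxylase of bile acid synthesis, had normalized log2 signals of 3.03 ± 0.03 in sEV livers and 2.31 ± 0.10 in control livers (SD, n = 3 each), a log2 fold change of 0.72 ± 0.08 (adjusted p = 0.00514). The sterol carriers Stard5 and Gramd1c had 0.38 each (adjusted p = 0.0225 and 0.0272). Vldlr, a lipoprotein receptor, fell by 1.42 on the log2 scale (adjusted p = 0.0256). With the row block, 1 of these 16 genes rose and 0 fell, and 1 of the 18 synthesis and control genes fell.

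Markers of other cell types also differed between the groups, and their part in the results on the members was not tested. The shares over all genes tested were 8.96% higher and 7.99% lower. Hepatocyte markers, of the cells that make most of the liver's cholesterol, had a mean normalized log2 signal of 8.12 to 8.24 in sEV livers, against 7.71 to 7.81 in control livers, with 4 of 10 higher (Tat, Cps1, Ass1 and Hnf4a) and 0 lower. The Kupffer cell and macrophage list had 2.91 to 3.08 in sEV livers, against 2.27 to 2.72 in control livers (5 of 10 higher, 0 lower), and the neutrophil list 2.06 to 2.53, against 0.88 to 1.41 (6 of 10 higher, 0 lower). Stellate cell and fibroblast markers had 0.77 to 0.91 in sEV livers, against 1.38 to 1.69 in control livers (4 of 10 lower, 0 higher), and cell division genes −3.09 to −2.49, against 1.06 to 1.36 (10 of 10 lower). For endothelial (10 tested) and bile duct markers (7 tested), 0 passed in either direction. Of 6 B cell markers 1 was higher and 3 lower, of 5 T and NK cell markers 2 were higher and 1 lower, and of 7 erythroid markers 1 was higher and 4 lower. With the row block, 2 hepatocyte markers were higher, 2 B cell markers, 1 erythroid marker and all 10 cell division genes were lower, and 0 were called in the Kupffer cell, neutrophil, stellate cell, and T and NK cell lists.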

How the data were processed

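Liver RNA of 3 sEV and 3 control mice was measured on 1-colour Agilent arrays, and the treatment label put each sample in its group. The submitters' processing notes name Agilent Feature Extraction 10.7.1.1. Scanner files as deposited hold intensity: per the file headers the processed signal had its background subtracted within each array, with no scaling between arrays. The authors' deposited value table holds log2 values, with each column's median at 4.5, and each column follows its array's processed signal (lowest r 0.9995 across probes). The sources used here do not say how it was scaled.

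For the main values, log2 of the processed signal had the array's 75th percentile subtracted. Control spots and outlier-flagged spots were left out. Of 56605 probes, those well above background on at least 3 arrays were kept, and the brightest stood for its gene name. Groups were compared over all 19447 genes by lmFit and eBayes of limma 3.58.1 (R 4.3.3), without covariates (Benjamini-Hochberg adjustment, threshold 0.05). A ± beside a fold change gives its SE. With 3 livers a group, the smallest p of an exact permutation test is 0.1.

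Gene names come from the array design. Accessions of all 35 members matched RefSeq genes and 1 had a newer symbol. The listed Acat2 and Sc4mol are not used here; Sc4mol is an old symbol of Msmo1. The members, the other gene lists and the tests were chosen with earlier results of these data known. Per-liver values are given for members past the threshold, and other members have their log2 fold changes. The per-liver values of Idi1, Fdps, Sqle, Lss, Dhcr7, Abcg5 and Abcg8, which did not pass, were added after they were seen. In the other lists up to 4 genes past the threshold are named by size of the moderated t, and Srebf1, Fasn and Scd1 were named after their values were seen. Livers with the same number in the sEV and control labels had deviations from their group means that correlated at r of 0.0178, 0.156 and 0.0212, not over 0.1 for each, so the numbers were not taken as pairs. In 19 alternatives, background correction, scaling, filter, probes per gene, variance model, weights, value table, blocks and samples were changed. Plots used matplotlib 3.10.9 (Python 3.11.15).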

Additional observations from a re-analysis of the deposited data

How the results depend on the processing

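Of the 14 calls among the members, all 14 were kept under normexp background correction, median scaling, array weights and a filter that asks for signal well above background on all arrays. The median log2 fold change of the members was negative in all 19 alternatives, and no called member changed its direction in any of them. Without a filter on dim probes, 791 genes and 2 members passed, against 3296 genes and 14 members, with 37074 genes adjusted for. With the slide row block 722 genes passed, and in slide row 1 alone 607. With the replicate number as a block (replicate block), 2157 genes and 5 members passed. Leaving out each liver in turn gave 1318 (without control 1) to 2823 genes (without sEV 1) and 3 (without control 1, or 2) to 15 members (without sEV 1). Under median scaling the median of all genes was −0.03, and 41.1% of calls were higher, against 52.9%; the same share was 33.5% with the row block. Directions turned only in genes that did not pass. Pmvk had 0.037 with array weights and −0.264 to 0.071 with a liver left out, and Ggps1 −0.032 to 0.159 with a liver left out. Dhcr7 had −0.42 with the row block and in row 1 alone, and −0.140 to 0.383 with a liver left out. As the mean over probes, Tmem97 had 0.023 and Abca1 0.046, and with a liver left out −0.038 to 0.019 and −0.150 to 0.018. Abcg5 had 0.10 and Abcg8 0.15 with the row block and in row 1 alone. With 3 livers per group, a miss of the threshold does not show that a gene was alike in both groups.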
